A study of Danio rerio with 6 samples.

Results

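Tight junctions are the belts of adhesion that seal neighbouring cells together in skin, gut, kidney and vessel walls. Claudins are four-pass membrane proteins that form the strands and set which ions and solutes leak between cells, occludin and its relatives share a MARVEL membrane domain, and the zonula occludens (ZO) proteins, encoded by tjp genes, anchor the strands to the actin cytoskeleton from inside the cell. Different epithelia, vessels and myelinating glia use different claudins, so transcripts of this family depend in part on which barrier-forming cells a sample holds. Transcript levels do not measure the state of the junctions themselves. The genes described here are the claudin, occludin, MARVEL-domain and ZO genes of zebrafish, drawn by a rule on gene symbols. Of the 36351 gene rows, 48 had a symbol beginning with cldn, tjp and a digit, ocln or marveld. The rule was set with earlier results of these data known.

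Their transcripts were measured by RNA sequencing of bulk sorted cells, positive for dsRed, taken from skeletal tissue of ctsk:dsRed zebrafish aged 10 weeks post fertilization. In this transgene the cathepsin K promoter drives a red fluorescent protein, and the labels call the sorted cells osteoclasts. Fish homozygous for a mutation of clcn7, which encodes a lysosomal chloride/proton exchanger used in bone resorption, were compared with WT siblings, and both genotypes carried the reporter. Each genotype had 3 replicate libraries, and every library pooled cells of 2 fish, at 5000 sorted cells a fish. The labels do not describe the clcn7 allele. The libraries held 22739782 to 26951306 read counts over genes. Levels are given as CPM, the reads of a gene relative to the scaled total of its library. A CPM value is compared between libraries for 1 gene or list. Because no transcript lengths were used, CPM values of different genes or lists compare their reads and not their transcript numbers.

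The sorted cells also carried transcripts of marker genes of cell types other than osteoclasts. ctsk stood at 463 to 1022 CPM in WT and 1054 to 1265 CPM in mutant libraries. Such a separation upwards was seen in 19.5% of all tested genes. ctsk did not pass the test used below (log2 fold change of mutant over WT 0.84 ± 0.30, SE; edgeR adjusted p = 0.102). A list of 16 keratinocyte genes, among them krt5, tp63 and col17a1a, summed to 47602 to 53844 CPM in WT and 18269 to 29083 CPM in mutant libraries. A list of 20 endothelial genes summed to 260 to 395 CPM in WT and 357 to 1110 CPM in mutant libraries, and none of the genes of either list was at 0 in all libraries. Of other lists, 7 of 9 tested macrophage and 8 of 8 neutrophil genes were called higher and 3 of 12 osteoblast genes were called lower, beside 9.91% higher and 4.83% lower among all tested genes. Nearer to those shares, 1 of 9 fibroblast genes was called lower and 1 of 12 osteoclast genes was called in each direction. At an unadjusted edgeR p under 0.05, 4 fibroblast genes were lower and 0 higher, and DESeq2 called 3 and 0. For osteoclast genes it was 3 higher and 1 lower, both unadjusted and in DESeq2. For osteoblast genes it was 6 lower and 0 higher unadjusted, and 5 lower and 0 higher in DESeq2. Over all tested genes DESeq2 called 1921 lower and 2744 higher, more than edgeR did. No share over all genes is given for an unadjusted p, here or below. The edgeR shares above are therefore no measure for unadjusted or DESeq2 counts of any list or class. The fibroblast list summed to 8154 to 9110 CPM in WT and 4984 to 6815 CPM in mutant libraries. Of 4 tested ionocyte genes none was called, none had an unadjusted edgeR p under 0.05 and none passed in DESeq2. That list of 8 genes summed to 69.1 to 84 CPM over all libraries, and ca2 alone stood at 43.9 to 75.7 CPM. Most of its reads thus came from 1 gene, so the list says little about ionocytes. The osteoblast list took the most reads of these lists in every library, at 54584 to 79145 CPM in WT and 37031 to 54617 CPM in mutant libraries. The lists differ in their number of genes, so these sums do not rank cell types. The osteoclast list summed to 1372 to 2866 CPM in WT and 2212 to 3094 CPM in mutant libraries. In bulk samples of this kind, fewer cells of a type and less RNA per cell cannot be told apart.

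Of the 48 genes, 38 had enough counts to be tested. Genes lower in mutant libraries included 7 epithelial claudin genes, the occludin gene oclna and the tricellulin gene marveld2a, and the paired claudin genes cldn11a and cldn11b were higher. In all 10 were lower and 2 higher (quasi-likelihood test of edgeR at a Benjamini-Hochberg adjusted p under 0.05, taken over all 20438 tested genes). Across all tested genes 4.83% were called lower and 9.91% were called higher, against 26.3% and 5.26% of the tested junction genes. The median log2 fold change (mutant over WT) was -0.68 for the tested junction genes and -0.05 for all tested genes, and 26 of the 38 had a fitted value below 0, as did 53.5% of all tested genes. With libraries scaled by size alone the split was 7 lower and 3 higher. Over all genes the split was 987 lower and 2025 higher, which became 1675 and 1787 under upper-quartile scaling, or 564 and 2626 when libraries were scaled by size. The median of all genes moved to -0.16 and 0.10 under those scalings, while that of the junction genes moved to -0.78 and -0.52. Leaving out 1 library reduced the 10 lower junction genes to 5, 6 and 3 when WT replicate 1, 2 or 3 was dropped. They became 6, 6 and 4 when mutant replicate 1, 2 or 3 was dropped. Over all genes the 987 lower genes fell too, to 647, 308 and 199 and to 540, 737 and 478 in the same fits. The 2 higher junction genes became 1 without WT replicates 1 or 3, and 3 without mutant replicate 1. Over all genes 1157 to 1828 were higher in the fits that left out 1 library.

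**Figure D1:**
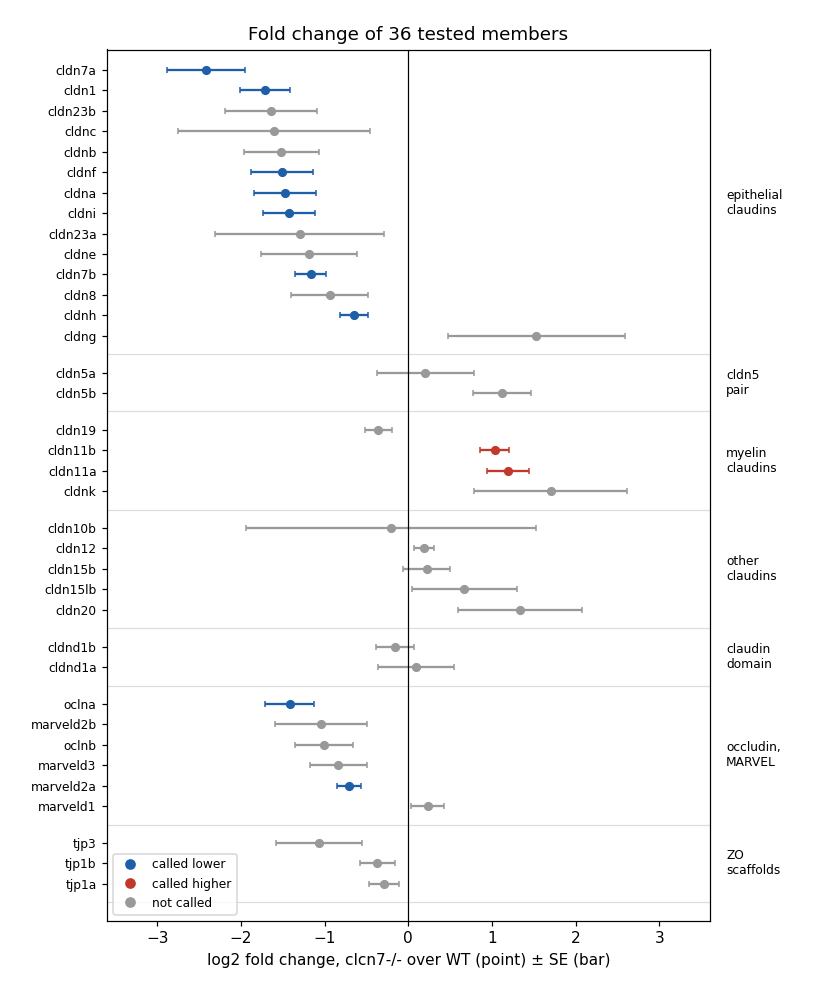
Log2 fold change of mutant over WT (x axis; points, with bars for the SE) for the 36 tested genes shown, grouped by class. The genes called lower (blue) are epithelial claudins, oclna and marveld2a, and the 2 called higher (red) are cldn11a and cldn11b; grey genes did not pass the test.

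The non-overlap of libraries gives a second description. In 18 of the 38 tested genes, or 47.4%, all 3 mutant libraries lay below all 3 WT libraries, as they did in 17.6% of all tested genes. In 3 genes, or 7.89%, all mutant libraries lay above, against 19.5% of all tested genes. All 12 called genes were among these separated genes. Both descriptions use the same 6 libraries, so the separation is not independent of the calls. The 8 genes that separated downwards without passing the test included cldnb, cldne, cldn19, cldn23b, marveld2b, marveld3 and tjp1b. The gene that separated upwards without passing was cldn12, with a fitted log2 value of 0.19 ± 0.12 (SE, edgeR adjusted p = 0.349). It measured 55.3, 50.9 and 50.9 CPM in the WT libraries and 63, 56.2 and 60.2 CPM in the mutant libraries, with little spread inside each genotype.

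The epithelial claudins were the class with most calls. The class takes in cldn1, cldn7a, cldn7b, cldn8 and the cldn23 genes, named as in mammals, and the fish genes lettered cldna to cldnj, many of them expressed in skin and other surface epithelia. Of its 16 genes 14 were tested, 7 were called lower and none was called higher, and the median log2 fold change was -1.45. At an unadjusted edgeR p under 0.05 there were 9 lower and 0 higher, as many as DESeq2 called. The single tested gene of the class with a fitted value above 0 was cldng (1.53 ± 1.06, edgeR adjusted p = 0.381). RefSeq lists a cldn5-like name as a synonym of cldng, which stood at 0 to 1.82 CPM.

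cldn7a had the lowest fold change of the 38 tested genes. Its product belongs to the claudin-7 group, which in mammals lies along the lateral membrane and binds EpCAM. Here and below, values are listed in the order of replicates 1, 2 and 3. The cldn7a level was 8.73, 28.2 and 10.8 CPM in WT and 2.38, 3.75 and 2.75 CPM in mutant libraries. WT replicate 2 was far above the other WT libraries, and the genotypes did not overlap. The log2 fold change was -2.42 ± 0.47 (SE; edgeR adjusted p = 0.0149), and it was -1.68 without WT replicate 2. The call was lost without mutant replicate 1 (edgeR adjusted p = 0.0556) and without mutant replicate 3 (edgeR adjusted p = 0.0508).

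Its paralog cldn7b was even within each genotype. It measured 94.7, 69 and 79.4 CPM in WT and 39.9, 40.3 and 28.3 CPM in mutant libraries. Every mutant library lay well under every WT library, and the fitted log2 value was -1.17 ± 0.19 (edgeR adjusted p = 0.00789), a level 2.24-fold higher in WT. The call held in 6 of 6 fits that left out a library, with adjusted p up to 0.0385.

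cldn1, the counterpart of the claudin that mice need for the water barrier of the epidermis, was also called in every such fit. It measured 29.8, 38.5 and 26 CPM in WT and 5.66, 12.3 and 10.7 CPM in mutant libraries. Mutant replicate 1 was the lowest and the groups were far apart. Its fitted change on the log2 scale was -1.71 ± 0.30 (edgeR adjusted p = 0.00994), a level 3.27-fold higher in WT, and the call held in 6 of 6 fits that left out a library, with adjusted p up to 0.0464.

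cldni measured 151, 196 and 176 CPM in WT and 36.1, 90.2 and 68.3 CPM in mutant libraries. As for cldn1, mutant replicate 1 was the lowest library. On the log2 scale it differed by -1.43 ± 0.31 (edgeR adjusted p = 0.022). The call was lost without WT replicates 1, 2 or 3 (edgeR adjusted p = 0.0506, 0.0884 and 0.0848) and without mutant replicate 3 (0.0575). cldnh, which RefSeq names cldn3c, fell least of the called claudins, from 50, 45.1 and 60.8 CPM in WT to 29.7, 32.3 and 37.3 CPM in mutant libraries. The cldnh mean was 51.9 CPM (SD 8.04 CPM) in WT and 33.1 CPM (SD 3.88 CPM) in mutant libraries. WT replicate 2 and mutant replicate 3 were the nearest libraries, without overlap. For cldnh the log2 fold change was -0.65 ± 0.17 (edgeR adjusted p = 0.0381). Its call held in 1 of 6 fits that left out a library, the one without mutant replicate 3. The adjusted p was 0.0874, 0.0678 and 0.165 without WT replicates 1, 2 and 3, and 0.115 and 0.085 without mutant replicates 1 and 2. With library size alone it was 0.0963.

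cldna, cldne and cldnf lie next to one another in the RefSeq GRCz12tu gene order, with cldnj beside them. cldna measured 426, 208 and 287 CPM in WT and 137, 133 and 59 CPM in mutant libraries. WT replicate 1 was the highest library and mutant replicate 3 the lowest, without overlap. On the log2 scale cldna differed by -1.48 ± 0.37 (edgeR adjusted p = 0.0363), and its call held in 1 of 6 fits that left out a library, the one without WT replicate 2. The adjusted p was 0.109 and 0.103 without WT replicates 1 and 3, and 0.0644, 0.0606 and 0.055 without mutant replicates 1, 2 and 3.

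cldnf was called as well, from 11.8, 7.09 and 12.1 CPM in WT to 2.55, 5.5 and 2.82 CPM in mutant libraries. The nearest libraries of the genotypes, WT replicate 2 and mutant replicate 2, were close. For cldnf the log2 fold change was -1.51 ± 0.37 (edgeR adjusted p = 0.0349), and the call held without mutant replicate 2 and in no other such fit. The adjusted p was 0.109, 0.0525 and 0.139 without WT replicates 1, 2 and 3, and 0.0986 and 0.0945 without mutant replicates 1 and 3. With library size alone it was 0.0504. cldne, a gene of the outermost embryonic skin layer in zebrafish, measured 24, 26.9 and 49.2 CPM in WT and 16, 23.8 and 4 CPM in mutant libraries. Mutant replicate 2 all but reached WT replicate 1 for cldne, and the gene did not pass (-1.19 ± 0.57, edgeR adjusted p = 0.208). cldnj, the remaining gene of this cluster, had a total of 32 counts and was not tested, at 0.59, 0.276 and 0.347 CPM in WT and 0, 0.0701 and 0 CPM in mutant libraries.

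cldnb, a gene of surface epithelia and the migrating lateral line in zebrafish embryos, took more reads than any other claudin in each library but was not called. It measured 780.4 CPM, 433 CPM and 546 CPM in WT and 319 CPM, 213 CPM and 83.6 CPM in mutant libraries. The genotypes did not overlap, but libraries varied widely within each, with an SD of 177 CPM in WT and 118 CPM in mutants. Between genotypes the log2 fold change was -1.52 ± 0.45 (edgeR adjusted p = 0.0613), almost that of cldna. It passed without mutant replicate 1 (log2 fold change -1.98, edgeR adjusted p = 0.0433). It also passed with upper-quartile factors, no low-count filter, limma-voom and DESeq2 (adjusted p = 0.0398, 0.048, 0.0459 and 0.00225), and over all alternatives its adjusted p lay between 0.00225 and 0.189. For cldnb the authors' deposited table lists -1.52 (log2) with an adjusted p of 0.00255. In the RefSeq gene order cldnh, cldnc and cldnb are neighbours. cldnc measured 1.42, 2.17 and 14.2 CPM in WT and 0.216, 0.981 and 4.6 CPM in mutant libraries, overlapping between genotypes.

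The remaining tested epithelial claudins were low or variable. cldn23b (-1.64 ± 0.55), cldn23a (-1.30 ± 1.01), cldnc (-1.61 ± 1.15) and cldn8 (-0.94 ± 0.46) did not pass, with edgeR adjusted p of 0.0877, 0.439, 0.395 and 0.214. cldn8 measured 9.39, 12.6 and 17.9 CPM in WT and 2.68, 9.43 and 8.6 CPM in mutant libraries, with WT replicate 1 level with mutant replicate 2.

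**Figure D2:**
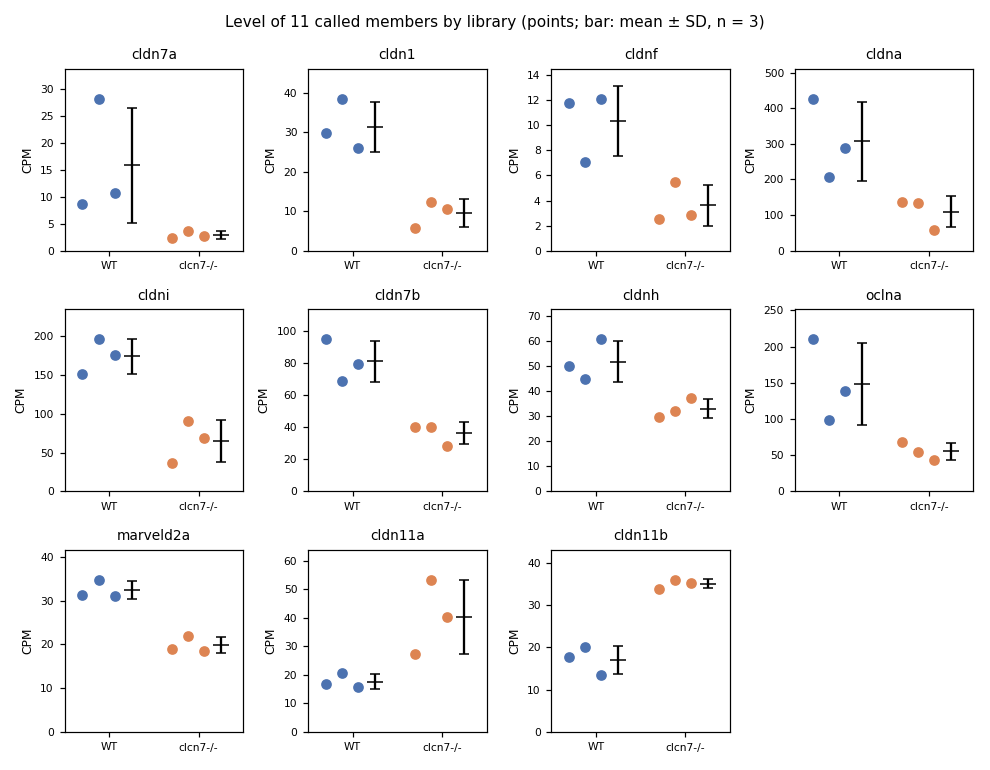
CPM (y axis, from 0) of 11 called genes in each library, with WT in blue and clcn7-/- in orange; horizontal ticks with bars are the mean ± SD of 3 libraries. No WT library overlaps a mutant library in any panel, and in cldn7a WT replicate 2 stands far above the other WT libraries.

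Genes of occludin and tricellulin were also among those that fell. Of the 6 genes of the occludin and MARVEL class all were tested, 2 were called lower and none was called higher, and the median log2 fold change was -0.93. At an unadjusted edgeR p under 0.05 it was 4 lower and 0 higher. DESeq2 called 3 lower and 0 higher, beside 1921 lower and 2744 higher over all genes. oclna, one of 2 occludin genes of the zebrafish, measured 209.9, 98.5 and 138 CPM in WT and 67.7, 54.7 and 43.9 CPM in mutant libraries. WT replicate 1 was the highest library and the genotypes did not overlap. For oclna the log2 fold change was -1.42 ± 0.29 (edgeR adjusted p = 0.0174). The call was lost without WT replicate 3 (edgeR adjusted p = 0.0576), mutant replicate 2 (0.0513) and mutant replicate 3 (0.0546).

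marveld2a, which encodes tricellulin, the protein of the points where 3 cells meet, had closely spaced replicates. It measured 31.2, 34.7 and 31.1 CPM in WT and 19, 21.9 and 18.5 CPM in mutant libraries. Its log2 fold change was -0.71 ± 0.14 (edgeR adjusted p = 0.016), a level 1.63-fold higher in WT, with no overlap. The call was lost without WT replicates 2 or 3 (edgeR adjusted p = 0.0793 and 0.0746) and mutant replicate 1 (0.0595). oclna and marveld2a are neighbours in the RefSeq gene order, and so are their paralogs oclnb and marveld2b.

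oclnb measured 41.5, 17.2 and 25.3 CPM in WT and 18, 14 and 9.78 CPM in mutant libraries. Mutant replicate 1 passed WT replicate 2 by a little, and oclnb did not pass (-1.01 ± 0.35, edgeR adjusted p = 0.0956), while DESeq2 gave an adjusted p of 0.0327. marveld2b measured 11.7, 5.71 and 5.9 CPM in WT and 4.63, 5.47 and 1.25 CPM in mutant libraries (-1.04 ± 0.55, edgeR adjusted p = 0.248). marveld3, whose product joins occludin and tricellulin at mammalian tight junctions, measured 6.25, 3.35 and 4.12 CPM in WT and 2.59, 2.7 and 2.36 CPM in mutant libraries (-0.84 ± 0.34, edgeR adjusted p = 0.138). Both marveld2b and marveld3 separated the genotypes narrowly. marveld1 overlapped between genotypes, at 66.6, 101 and 88.2 CPM in WT and 122, 91.4 and 85.6 CPM in mutant libraries (0.23 ± 0.20, edgeR adjusted p = 0.509).

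The ZO-1 genes, whose scaffold protein is also found at junctions outside epithelia, did not pass the test. tjp1a measured 54.8, 52.2 and 59.2 CPM in WT and 44.6, 55.6 and 35.6 CPM in mutant libraries (-0.29 ± 0.18, edgeR adjusted p = 0.326). tjp1b measured 34.7, 36.6 and 35.4 CPM in WT and 31.7, 31.7 and 19.1 CPM in mutant libraries (-0.37 ± 0.21, edgeR adjusted p = 0.277). In both genes mutant replicate 3 was the lowest library. tjp3, the ZO-3 gene, measured 36.9, 16 and 24.3 CPM in WT and 18.2, 14.3 and 4.32 CPM in mutant libraries, overlapping between genotypes (-1.07 ± 0.51, edgeR adjusted p = 0.2).

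cldn5a and cldn5b, the counterparts of the claudin that seals blood vessel walls, had fitted values above 0 and neither passed. cldn5b measured 11.1, 15.2 and 20 CPM in WT and 18.4, 44.9 and 37.1 CPM in mutant libraries. Mutant replicate 1 lay within the WT range and the other mutant libraries lay above it. The log2 fold change was 1.12 ± 0.35 (edgeR adjusted p = 0.0694). It passed without mutant replicate 1 (log2 fold change 1.41, edgeR adjusted p = 0.0246), with DESeq2 (adjusted p = 0.012) and with library size alone (adjusted p = 0.0492), and over all alternatives its adjusted p lay between 0.012 and 0.261. For cldn5b the authors' deposited table lists 1.13 (log2) with an adjusted p of 0.0146. cldn5a overlapped between genotypes, at 2.16, 5.91 and 7.2 CPM in WT and 2.46, 10 and 5.07 CPM in mutant libraries. Mutant replicate 2 lay above every WT library, and the other mutant libraries lay within the WT range. The log2 fold change of cldn5a was 0.20 ± 0.58 (edgeR adjusted p = 0.857) and turned negative, to -0.43, without mutant replicate 2.

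The summed levels of the epithelial and cldn5 classes were set side by side. Epithelial claudins summed to 1591, 1074 and 1283 CPM in WT and 596, 568 and 311 CPM in mutant libraries. The cldn5 pair summed to 13.3, 21.1 and 27.2 CPM in WT and 20.8, 54.9 and 42.2 CPM in mutant libraries. The epithelial sums did not overlap between genotypes and the cldn5 sums did. The log2 ratio of cldn5 to epithelial CPM was -6.90, -5.67 and -5.56 in WT and -4.84, -3.37 and -2.88 in mutant libraries, a difference of 2.35 between genotype means with every mutant library above every WT library. Being a score over chosen genes, this ratio was given no test. With the epithelial class narrowed to the names shared with mammals the difference was 2.25, and with cldn5b alone it was 2.52. Without cldna and cldnb, which have the most reads over all 6 libraries, the epithelial sum was 385, 432 and 451 CPM in WT and 139.8, 222 and 169 CPM in mutant libraries.

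Markers of epithelial cells moved with the epithelial claudins. epcam, which encodes the epithelial adhesion molecule that binds claudin-7 in mammals, fell from 535, 342 and 366 CPM in WT to 166, 227 and 137 CPM in mutant libraries (-1.23 ± 0.25, edgeR adjusted p = 0.016). Of the 15 tested keratinocyte genes 8 were called lower and none higher, beside 4.83% and 9.91% of all tested genes, with a median of -1.39. At an unadjusted edgeR p under 0.05 it was 12 lower and 0 higher, and DESeq2 called 11 and 0. The 2 called genes with the smallest p were cyt1 (-3.21 ± 0.59) and the basal epidermal transcription factor gene tp63 (-1.52 ± 0.28). The level of cyt1 was low, at 2.16, 3.86 and 2.6 CPM in WT and 0.173, 0.526 and 0.214 CPM in mutant libraries. Set against the keratinocyte list, the epithelial claudin sums overlapped between genotypes. They came to 29.6, 22.6 and 25.1 CPM in WT and 27, 19.5 and 17 CPM in mutant libraries per 1000 CPM of the keratinocyte list. By this measure mutant replicate 1 lay within the WT range, and mutant replicates 2 and 3 lay below every WT library. Single genes per 100 CPM of epcam overlapped too. The most uneven was cldnb, at 146, 127 and 149 CPM in WT and 192, 93.9 and 61.1 CPM in mutant libraries. Mutant replicates 2 and 3 lay below every WT library for cldnb, and mutant replicate 1 above. cldni stood at 28.2, 57.4 and 47.9 CPM in WT and 21.8, 39.7 and 50 CPM in mutant libraries. cldn7b stood at 17.7, 20.2 and 21.7 CPM in WT and 24, 17.7 and 20.7 CPM in mutant libraries per 100 CPM of epcam, and oclna at 39.2, 28.8 and 37.7 CPM in WT and 40.8, 24.1 and 32.1 CPM in mutant libraries. The part that the keratinocyte transcripts have in the lower claudin levels was not tested.

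The endothelial markers were less uniform. Of the 20 endothelial genes 3 were called higher and 1 was called lower, beside 9.91% and 4.83% of all tested genes, with a median of 0.97. At an unadjusted edgeR p under 0.05 it was 7 higher and 1 lower, and DESeq2 called 6 and 1. The VEGF receptor gene kdr (1.77 ± 0.40) and the ETS factor gene erg (1.83 ± 0.34) rose, and the VEGF receptor gene flt1 (-1.41 ± 0.34) fell. pecam1, which encodes an adhesion molecule of endothelial cells, did not pass (-0.45 ± 0.51, edgeR adjusted p = 0.606). cdh5, which encodes the cadherin that defines endothelial junctions, measured 0.943, 7.41 and 7.94 CPM in WT and 2.55, 33.8 and 2.53 CPM in mutant libraries. Only mutant replicate 2 was high, and kdrl was likewise high in mutant replicate 2 alone, at 8.52, 75.8 and 9.46 CPM in the mutant libraries. cldn5b and cdh5 ranked the libraries differently: mutant replicate 3 held 37.1 CPM of cldn5b at 2.53 CPM of cdh5, and WT replicate 3 held 20 CPM of cldn5b at 7.94 CPM of cdh5. Per 100 CPM of cdh5, cldn5b stood at 1179, 205 and 251 CPM in WT and 720.3, 133 and 1465 CPM in mutant libraries. Per 1000 CPM of the whole endothelial list, the cldn5 pair came to 51, 53.4 and 92 CPM in WT and 58.4, 49.5 and 93.9 CPM in mutant libraries, so that the genotypes overlapped almost fully. The part that endothelial transcripts have in the cldn5b level was not tested.

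**Figure D3:**
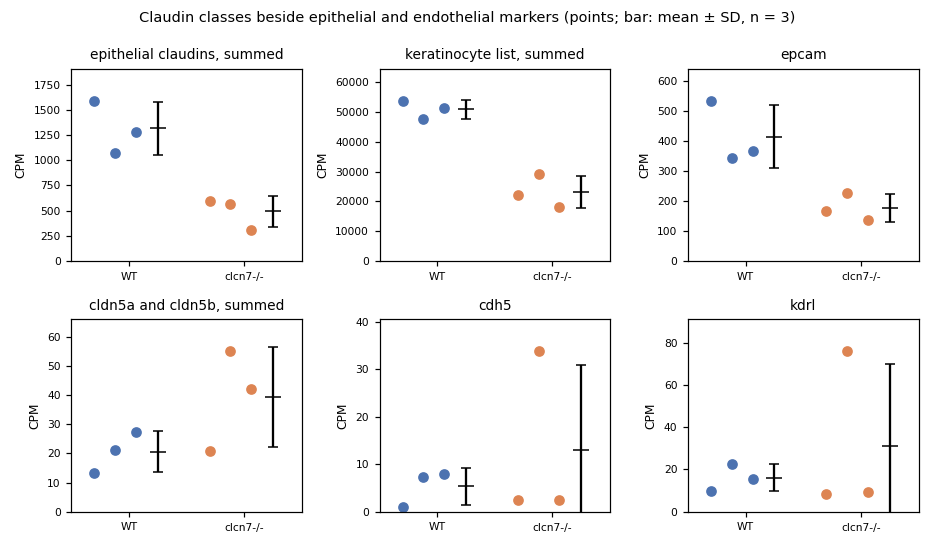
CPM (y axis, from 0) in each library of the summed epithelial claudins, the summed keratinocyte list, epcam, the summed cldn5 pair, cdh5 and kdrl; WT in blue, clcn7-/- in orange, bars for mean ± SD of 3 libraries, cut at 0. The top panels separate the genotypes, while in the lower panels cdh5 and kdrl are high in mutant replicate 2 alone, at 33.8 and 75.8 CPM, and the cldn5 pair is high in mutant replicates 2 and 3.

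Both cldn11 genes rose, and no other of the 38 tested junction genes was called higher. Claudin-11 forms the tight junctions of central myelin and of the Sertoli cells of the testis in mammals. cldn11b measured 17.8, 20 and 13.5 CPM in WT and 33.9, 36 and 35.3 CPM in mutant libraries. The mutant libraries were nearly equal and far above the WT libraries, and the fitted log2 value was 1.03 ± 0.17 (edgeR adjusted p = 0.00849); the call held in 6 of 6 fits that left out a library. cldn11a measured 16.8, 20.5 and 15.6 CPM in WT and 27.3, 53.3 and 40.4 CPM in mutant libraries (1.19 ± 0.25, edgeR adjusted p = 0.0194). Its mutant libraries differed more among themselves but none reached down to a WT library. The call of cldn11a was lost without WT replicate 1 (edgeR adjusted p = 0.0599) and WT replicate 3 (0.0845).

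The other claudins of myelinating cells did not pass. cldnk, a marker of myelinating glia in zebrafish, measured 0.59, 3.23 and 1.48 CPM in WT and 1.3, 2.84 and 13.1 CPM in mutant libraries, high in mutant replicate 3 alone (1.70 ± 0.91, edgeR adjusted p = 0.256). cldn19, the counterpart of a claudin of Schwann cells and kidney in mammals, measured 26.5, 32.1 and 27.5 CPM in WT and 25.3, 19.7 and 22.1 CPM in mutant libraries (-0.36 ± 0.16, edgeR adjusted p = 0.173). Its value was below 0, unlike those of cldn11a, cldn11b and cldnk. Of 9 tested genes on a list of myelinating glia 1 was called, beside 9.91% of all tested genes called higher, and the median was -0.15. At an unadjusted edgeR p under 0.05 it was 2 higher and 0 lower, as many as DESeq2 called. The called gene was plp1b, a myelin proteolipid gene (2.08 ± 0.45, edgeR adjusted p = 0.022). plp1b measured 4.28, 8.51 and 4.9 CPM in WT and 15.6, 16.9 and 42.2 CPM in mutant libraries. mpz, which encodes the main protein of peripheral myelin, measured 3.42, 9.73 and 6.03 CPM in WT and 9.25, 13.6 and 28.9 CPM in mutant libraries (1.43 ± 0.50, edgeR adjusted p = 0.0974), and the myelin basic protein gene mbpa did not pass either (0.23 ± 0.52, edgeR adjusted p = 0.813). The summed level of that list was 137 to 193 CPM in WT and 156, 163 and 297 CPM in mutant libraries, so mutant replicate 3 alone lay above WT. The glial factor gene sox10 stood at 0.216 to 4.57 CPM over all 6 libraries. The part of glial transcripts in the cldn11 levels was not tested.

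**Figure D4:**
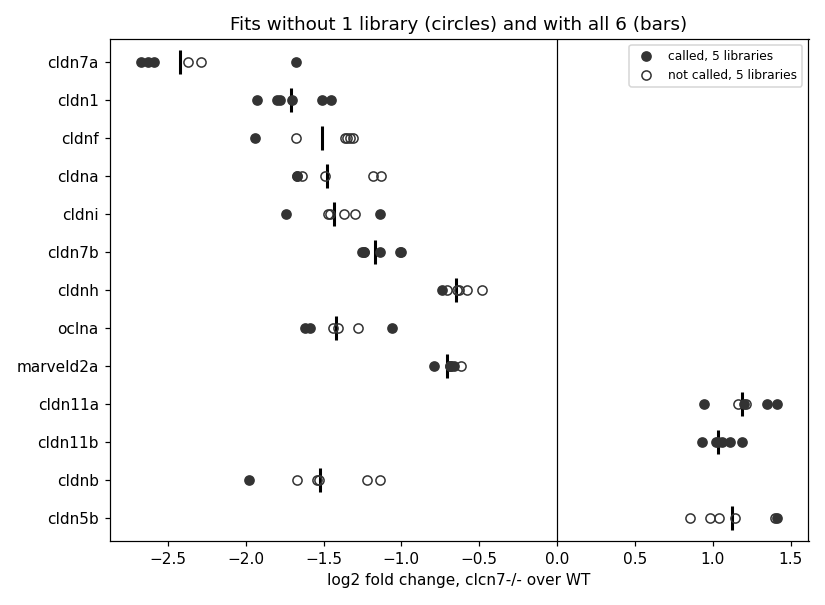
Log2 fold change (x axis) of 11 called genes, cldnb and cldn5b with all 6 libraries (bars) and in the 6 fits that each left out 1 library (circles; filled where called). cldn1, cldn7b and cldn11b stayed called in all 6 fits, and the fits of each gene shown lie on 1 side of 0.

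Of the 13 claudins outside these classes, 5 had enough counts to be tested. None was called by edgeR or by DESeq2, and none had an unadjusted edgeR p under 0.05. The tested genes were cldn12, cldn15b (0.22 ± 0.28), cldn15lb (0.67 ± 0.63), cldn20 (1.33 ± 0.74) and cldn10b (-0.21 ± 1.73). The claudin-domain genes cldnd1a and cldnd1b, more distant relatives, did not pass either (0.09 ± 0.45 and -0.16 ± 0.23), unadjusted or in DESeq2. The 10 untested members, among them the intestinal and renal type genes cldn2, cldn10a, cldn15a and cldn15la, had at most 83 counts over all 6 libraries. cldn18, whose mouse counterpart restrains osteoclast formation, had no count in any library, which allows up to 0.111 to 0.132 CPM in a library by counting error.

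Claudin genes that the count files name otherwise were outside the symbol rule. RefSeq synonyms placed 5 such rows, cldn26, cldn29, cldn30, cldn33b and cldn8.2. All stood at 0 to 5.08 CPM, 4 were tested, and none passed, with edgeR adjusted p from 0.15 to 0.691; 1 had an unadjusted p under 0.05 and none passed in DESeq2.

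Partner proteins of the junction were compared from a list of 32 genes, of which 25 were tested. None was called higher and 2 were called lower, beside 9.91% higher and 4.83% lower among all tested genes, with a median of -0.31. Unadjusted, 6 lower and 1 higher had an edgeR p under 0.05, and DESeq2 called 4 lower and 1 higher. Both encode angulins, the receptors that bring tricellulin to the corners between cells in mammals. lsr measured 58.4, 33 and 49.5 CPM in WT and 21.6, 24.8 and 11.5 CPM in mutant libraries (-1.28 ± 0.32, edgeR adjusted p = 0.0351). ildr1b measured 9.91, 8.08 and 9.15 CPM in WT and 4.06, 5.54 and 3.36 CPM in mutant libraries (-1.07 ± 0.26, edgeR adjusted p = 0.0339). Neither overlapped between genotypes, as marveld2a did not. Such a separation downwards was seen in 17.6% of all tested genes. The 22 tested adherens junction and desmosome genes had a median of -0.80. At an unadjusted edgeR p under 0.05, and also in DESeq2, 9 were lower and 0 higher. By the adjusted edgeR p 4 were called lower and none higher, beside 4.83% lower and 9.91% higher among all tested genes. They included epcam and jupa, a plakoglobin gene that fell from 564 ± 140 to 259 ± 56.5 CPM (SD, n = 3; -1.12 ± 0.23, edgeR adjusted p = 0.0189). The E-cadherin gene cdh1 did not pass (-0.94 ± 0.32, edgeR adjusted p = 0.0878).

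In the authors' deposited table, 39 of the 48 genes were found by symbol with an adjusted p. Of these, 13 are lower and 3 higher at an adjusted p under 0.05. The share of all genes of that deposited table under this threshold is not given here, and the edgeR shares above do not stand in for it. No values were found under the symbols cldn8 and cldn20, which were tested here.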

How the data were processed

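The authors deposited whole read counts per gene for 6 libraries; the submitters' processing notes name GRCz11, HTSeq 0.9.1, STAR 2.7.0a, DESeq2 and Trim Galore. Annotation and strand setting are not given in the labels or headers, so overlapping genes and near-identical paralogs are uncertain. The authors also deposited a table of log2 values per library, log2 fold changes and adjusted p-values, per the file headers. The 5 rows that name no gene (20.1% to 23% of counts) were left out.

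Counts were tested with edgeR 4.0.16 in R 4.3.3: filterByExpr (minimum count 10, minimum total 15), TMM factors, and a quasi-likelihood test with genotype as the only term. Benjamini-Hochberg adjustment ran over 20438 genes. CPM used all gene counts and TMM factors. The common biological coefficient of variation was 35.3%. The steps were tested on simulated counts. Alternatives included DESeq2 1.42.0, limma 3.58.1 (voom with sample quality weights), other scalings and filters (the stricter one: at least 1 CPM in 3 libraries, mean count at least 10), glmTreat (fold 1.5), and dropping each library. In the text ± is the SE of a log2 fold change or, where stated, the SD of CPM over 3 libraries.

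Members and lists were chosen with earlier results of these data known. Genes named with values are all called members, the cldn5, tjp, ocln and marveld members of at least 1 CPM, the 5 claudins of highest mean CPM, and up to 2 genes per list and direction. Further claudins, epcam ratios, cdh1, cdh5, kdrl, pecam1, mpz, mbpa and sox10 were chosen after their values were seen. Gene neighbours and synonyms came from RefSeq GRCz12tu, where 47 of 48 members matched. Of the genes this rule names, some are not reported here. Protein and promoter sequences were not analysed here. The labels call replicates biological and give no batches.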

Additional observations from a re-analysis of the deposited data

How the results depend on the processing

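The 10 lower and 2 higher junction genes became 3 (cldn1, cldn7a and cldn7b) and 0 when tested against a fold of 1.5 with glmTreat. Under glmTreat 1191 genes were called in all against 3012, with 134 lower and 1057 higher against 987 and 2025. DESeq2 called 4665 genes, of which 1921 were lower and 2744 higher, and among these 13 junction genes were lower and 3 higher. The median log2 fold change of the tested junction genes was -0.78 with upper-quartile factors, -0.52 with library size alone and -0.78 with the stricter filter, which tests fewer genes. Leaving out 1 library gave 3 to 6 lower and 1 to 3 higher junction genes, beside 199 to 737 lower and 1157 to 1828 higher over all genes. In those fits 1356 to 2527 genes were called in all, and the junction gene median was -0.71 to -0.48. The difference in log2 cldn5 to epithelial ratio was 1.92 to 2.92, against a spread between replicates of 0.89 (SD). With the replicate number as a block, 11 junction genes were lower and 3 higher and the median was -0.75; cldnb (-1.66, edgeR adjusted p = 0.0244), oclnb (-0.96, 0.0489) and cldn5b (1.06, 0.0219) passed under it and cldnf did not. By the check of the pairing, same-numbered libraries correlated at 0.24, 0.03 and 0.16 in their deviations from the genotype means. Libraries of unlike number correlated at -0.21 to 0.03. The labels do not say that equal numbers mark pairs, and so few libraries cannot settle it. The fold change of cldn5a turned negative with limma-voom (-0.12), without WT replicate 1 (-0.11) and without mutant replicate 2 (-0.43), in a range of -0.43 to 0.59 over the fits that left out 1 library. Of 330 refits of 22 named genes, 275 kept direction and side of the threshold, 40 lost a call, 12 gained one and 3 changed sign. Only the 11 called genes among them could lose a call. Of 15 refits each, cldnf lost its call in 8, cldnh in 7 and cldna in 6, while cldn1 and cldn7b lost it in 0. The cause of these shifts was not tested. Genes under about 1 CPM, such as the 10 untested members, are limited by depth.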
